A study of Mus musculus with 6 samples.

Results

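Genes of the two-cell-like state, 10 in number, were followed in RNA-seq of mouse embryonic stem cells, the pluripotent cells of the early embryo kept in culture. They are Zscan4c, Zscan4d, Zscan4f, Zfp352, Tcstv1, Tcstv3, Gm4340, Gm5662, Tmem92 and Sp110, and they make up 10 of the 24083 genes in the table. They were chosen by name as known genes of that state, with earlier results of these data known. The data were 6 libraries, 3 from cells of the genotype R153A, an altered Nanog, and 3 from wild-type cells (WT). All cells of both groups grew on gelatin with serum and the cytokine LIF, which sustains self-renewal, and had no further treatment. The sources used here do not say how R153A was introduced, or whether replicates were separate cultures or clones, so the p-values measure the spread between these libraries, which may be technical.

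The two-cell-like state is a rare and reversible condition of cultured embryonic stem cells in which genes of the mouse two-cell embryo, the stage at which the embryo's own genome is first transcribed, are switched on again. The transcription factor Dux stands near the top of that program, and chromatin repressors such as Trim28 hold it down in most cells of a culture. Zscan4 proteins have a SCAN domain, bind DNA through zinc fingers and are known for their role in telomere maintenance. In bulk RNA such as this, a higher level in a share of the cells and more RNA per cell cannot be told apart.

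Several of the genes belong to multi-copy families, and the starts of the Zscan4 genes show how alike such copies are. The RefSeq promoter table (mouse build GRCm38.p6) held 7 promoters of 6 of the 10 genes, each running from 250 bases before the transcription start to 50 bases from the start on, and position 1 is the first transcribed base. The 3 Zscan4 promoters lie on chromosome 7, at chr7:11005495-11005794 on the plus strand for Zscan4c, at chr7:11166099-11166398 on the minus strand for Zscan4d and at chr7:11397665-11397964 on the plus strand for Zscan4f. They are shown because reads from the copies are hard to assign to one of them. Capitals mark the 55-base run that all 3 share, which holds the letters TATAAA.
Zscan4c: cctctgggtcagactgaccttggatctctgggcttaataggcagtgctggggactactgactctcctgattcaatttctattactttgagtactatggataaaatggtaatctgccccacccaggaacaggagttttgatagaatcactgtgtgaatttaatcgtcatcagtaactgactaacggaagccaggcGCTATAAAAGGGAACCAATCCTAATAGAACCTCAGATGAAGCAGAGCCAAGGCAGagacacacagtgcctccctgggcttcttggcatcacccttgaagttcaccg
Zscan4d: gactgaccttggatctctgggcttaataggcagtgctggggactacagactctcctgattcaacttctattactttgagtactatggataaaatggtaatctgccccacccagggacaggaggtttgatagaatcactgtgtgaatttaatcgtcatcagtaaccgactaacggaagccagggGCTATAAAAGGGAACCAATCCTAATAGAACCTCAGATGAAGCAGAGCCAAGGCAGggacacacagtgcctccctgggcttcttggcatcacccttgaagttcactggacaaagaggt
Zscan4f: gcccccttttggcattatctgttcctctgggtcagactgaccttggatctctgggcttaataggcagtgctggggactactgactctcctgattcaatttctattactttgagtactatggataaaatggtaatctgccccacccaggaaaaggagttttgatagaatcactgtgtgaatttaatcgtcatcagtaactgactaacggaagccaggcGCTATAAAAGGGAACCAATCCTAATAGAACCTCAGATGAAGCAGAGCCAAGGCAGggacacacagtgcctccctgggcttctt

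The promoter of Gm4340, at chr10:104193792-104194091 on the plus strand, and that of the first RefSeq start of Sp110, at chr1:85603842-85604141 on the minus strand, are shown because genes on different chromosomes share a start region. Capitals mark the 100-base run they hold in common, which covers positions -89 to 11 in Gm4340 and -86 to 14 in Sp110.
Gm4340: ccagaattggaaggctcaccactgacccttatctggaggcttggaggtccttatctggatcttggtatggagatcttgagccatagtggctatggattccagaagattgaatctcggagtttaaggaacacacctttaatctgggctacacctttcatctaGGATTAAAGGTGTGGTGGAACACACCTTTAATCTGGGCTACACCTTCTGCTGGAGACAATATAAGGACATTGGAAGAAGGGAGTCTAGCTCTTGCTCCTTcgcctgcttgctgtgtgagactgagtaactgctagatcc
Sp110: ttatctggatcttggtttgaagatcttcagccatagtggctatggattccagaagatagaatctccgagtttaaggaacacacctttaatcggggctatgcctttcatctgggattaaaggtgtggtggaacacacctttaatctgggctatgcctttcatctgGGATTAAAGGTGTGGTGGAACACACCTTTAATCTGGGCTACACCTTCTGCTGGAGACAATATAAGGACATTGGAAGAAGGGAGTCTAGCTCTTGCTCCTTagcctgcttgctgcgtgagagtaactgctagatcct

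A set of 3 short motifs was searched on both strands of these promoters. GATTNAATC, the core letters bound by Dux, occurred once, in Gm4340 at position -146, and was present in 0.268% of all 32851 promoters in the table. TGCACAC, letters bound by Zscan4, occurred in none of the 7 promoters and in 4.40% of all promoters. TATAAA stood at position -54 in Zscan4c, -65 in Zscan4d and -31 in Zscan4f, in none of the other 4 promoters, and in 13.6% of all promoters. These matches describe the letters in the windows only.

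Levels are in FPKM, which divides a gene's fragments by its length and by the mapped fragments of the library. Fold changes are differences of log2(FPKM + 1), a scale on which a gene far below 1 FPKM moves little even when its ratio is large, and calls were made at an adjusted p under 0.05 in limma over 20504 genes. Nanog, the targeted gene, stood at 119, 122 and 129 FPKM in R153A libraries and 241, 259 and 258 FPKM in WT libraries, which does not check the mutation itself. All 12 embryonic stem cell markers were above 10 FPKM in every WT library, and 9 of them fell in R153A, Klf4, Esrrb, Fgf4, Dppa5a, Sox2 and Nanog furthest. The number of genes listed at 0 was 5562, 5979 and 5574 in R153A libraries and 6246, 6521 and 5957 in WT libraries, ranges that overlapped. The depth behind the values is unknown, since no read counts were given.

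Of the 10 genes, 8 had a value above 0 in some library, and all 8 rose in R153A, with every R153A value above every WT value. Over all genes tested, 40.3% were called, 26.9% higher and 13.4% lower, and 32.9% had every R153A value above every WT value. Among the 8925 genes with a mean under 1 FPKM, 18.5% were called higher and 5.01% lower, and in 24.7% the groups were apart in the same direction. The sum over those low genes was 1825 to 1993 FPKM in R153A libraries and 1387 to 1446 FPKM in WT libraries, and the part of that general difference in the members' rise was not tested. The median log2 fold change was 1.09 over the 8 genes, against 0.026 over all genes tested. The sum of the 10 genes was 8.03 to 10.5 FPKM in R153A libraries and 0.410 to 0.702 FPKM in WT libraries. Only 4 of the 10 genes, Zscan4c, Zscan4f, Gm4340 and Gm5662, reached 1 FPKM in 3 libraries, and they did so through R153A alone. Among the 11817 genes that passed this filter, 59.8% were called and 37.5% called higher.

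**Figure D1:**
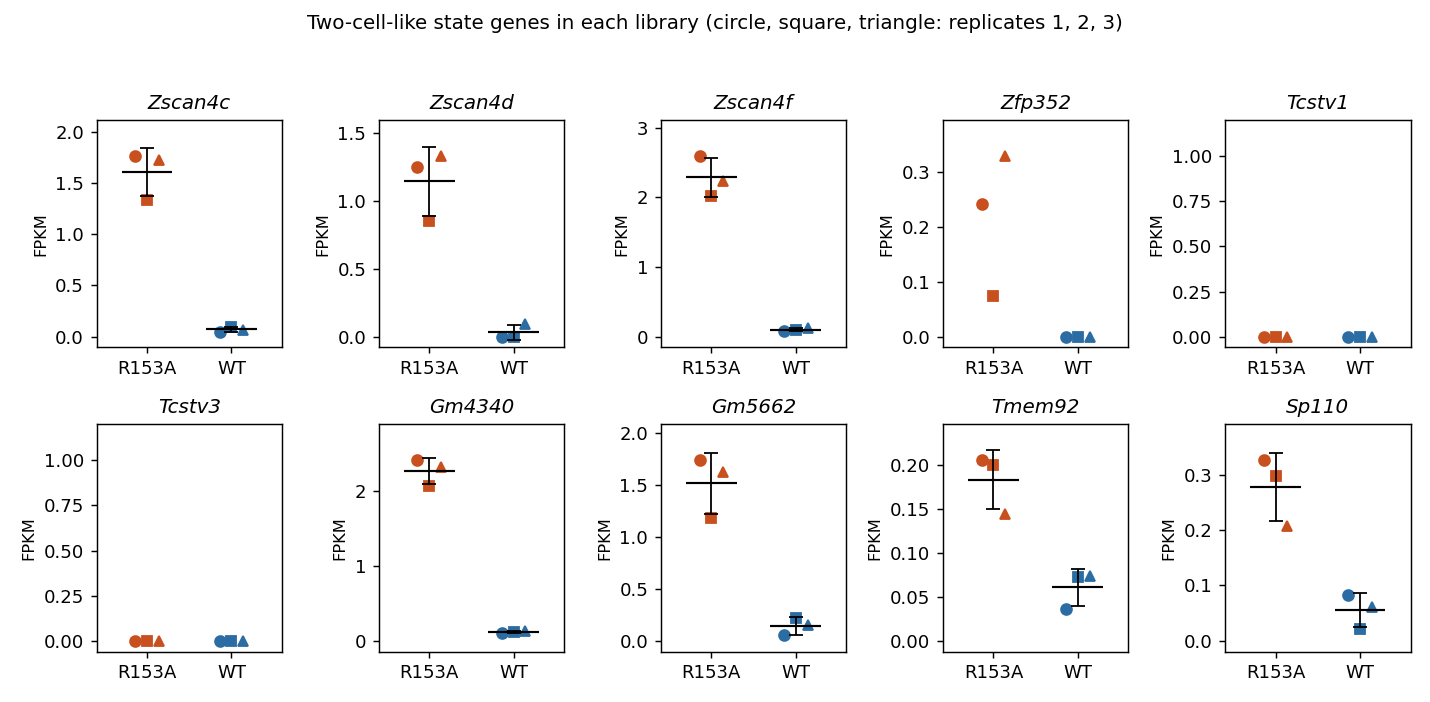
FPKM of each of the 10 genes in the 3 R153A libraries (left) and the 3 WT libraries (right), each panel with its own scale, with bars for the mean and SD except where a group is listed at 0. In 8 panels every R153A library lies above every WT library, and Tcstv1 and Tcstv3 are at 0 in all 6.

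Zscan4c had 1.76, 1.34 and 1.73 FPKM in R153A libraries, against 0.0495, 0.0975 and 0.0628 FPKM in WT libraries. All R153A libraries stood high and all WT libraries low, with replicate 2 the lowest of R153A. Its mean was 1.61 ± 0.236 FPKM in R153A and 0.0699 ± 0.0248 FPKM in WT (SD, n = 3 each), which is a ratio of 23.0. The log2 fold change was 1.28 (SE 0.0746), with a limma adjusted p of 6.77e-05.

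Zscan4f, the nearer of the other 2 Zscan4 members to Zscan4c in sequence, had 2.59, 2.03 and 2.24 FPKM in R153A libraries and 0.0832, 0.0972 and 0.127 FPKM in WT libraries. The highest WT library stayed far below the lowest R153A library. The means were 2.29 ± 0.286 FPKM in R153A and 0.102 ± 0.0223 FPKM in WT (SD, n = 3 each), which is a ratio of 22.3. The log2 fold change was 1.57 (SE 0.0745), with a limma adjusted p of 3.45e-05.

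Zscan4d, the copy reported to be the main one in the two-cell embryo, had 1.25, 0.851 and 1.33 FPKM in R153A libraries, against 0.000467, 0 and 0.0947 FPKM in WT libraries. WT replicate 3 was the only WT library above a trace, and R153A replicate 2 was again the lowest of its group. On the log2 scale the fold change was 1.05 (SE 0.0957; limma adjusted p = 3.7e-04), and no ratio is given because a WT library is listed at 0.

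Zfp352, a zinc finger gene switched on in the two-cell embryo, had 0.242, 0.0733 and 0.328 FPKM in R153A libraries and was listed at 0 in all 3 WT libraries. R153A replicate 2 held less than the other libraries of its group. The difference on the log2(FPKM + 1) scale was 0.27 (SE 0.0750; limma adjusted p = 0.0293). The call was lost in the limma fits without R153A replicate 1 or 3 or without any one WT replicate (adjusted p between 0.0576 and 0.0840), and held without R153A replicate 2 (adjusted p = 0.0013).

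Gm4340, a predicted gene of a multi-copy family, had 2.40, 2.07 and 2.31 FPKM in R153A libraries, against 0.102, 0.112 and 0.130 FPKM in WT libraries. The groups were tight and far apart. Its mean was 2.26 ± 0.174 FPKM in R153A and 0.115 ± 0.0142 FPKM in WT (SD, n = 3 each), a ratio of 19.7 and a log2 fold change of 1.55 (SE 0.0581), with the lowest adjusted p of the 10 genes (limma, 1.77e-05).

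Gm5662, a predicted gene of the Eif1a-like group, named after the translation initiation factor eIF1A, had 1.73, 1.18 and 1.63 FPKM in R153A libraries and 0.0557, 0.223 and 0.153 FPKM in WT libraries. The WT libraries differed more among themselves here than for Gm4340, without reaching the R153A range. The ratio of means was 10.5 and the log2 fold change 1.13 (SE 0.103; limma adjusted p = 3.71e-04).

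Tmem92, which encodes a transmembrane protein, had 0.205, 0.200 and 0.144 FPKM in R153A libraries, against 0.0364, 0.0728 and 0.0732 FPKM in WT libraries. Both groups were low, and R153A replicate 3 lay nearest to WT. The ratio of means was 3.01 and the log2 fold change 0.16 (SE 0.0280; limma adjusted p = 0.00562). Under quantile normalization the call was lost (log2 fold change 0.094, limma adjusted p = 0.0531).

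Sp110, a nuclear body protein of the SP100 family that interferon can induce, had 0.326, 0.298 and 0.208 FPKM in R153A libraries and 0.0826, 0.0214 and 0.0620 FPKM in WT libraries. As for Tmem92, replicate 3 was the lowest of R153A and still above all of WT. The ratio of means was 5.01 and the log2 fold change 0.27 (SE 0.0420; limma adjusted p = 0.00305). On the log2(FPKM + 1) scale this is close to the difference for Zfp352, although Sp110 was above 0 in every library.

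Among the R153A libraries the levels ran from Zscan4f through Gm4340, Zscan4c, Gm5662 and Zscan4d to Sp110, Zfp352 and Tmem92, in FPKM and so per length. Zscan4f and Gm4340 overlapped. Zscan4c lay below the whole range of Gm4340, Gm5662 overlapped both Zscan4c and Zscan4d, and there was a gap between Zscan4d and the 3 lowest genes, of which Zfp352 overlapped both Sp110 and Tmem92. In WT the order differed, with Gm5662 first, and every pair of neighbours in it overlapped or met at 0. Replicate 2 was the lowest R153A library for 6 of the 8 genes and replicate 1 the highest for 6 of the 8.

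**Figure D2:**
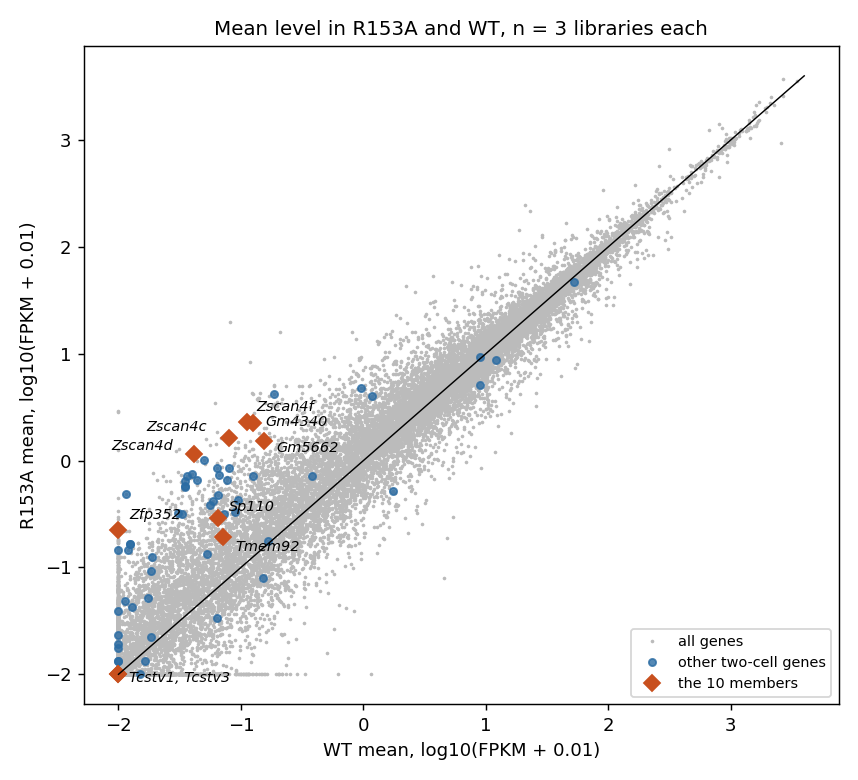
Mean level in R153A (vertical axis) against WT (horizontal axis), both as log10(FPKM + 0.01), for all genes (grey), the other two-cell genes (blue) and the 10 genes (orange). The 8 genes above 0 lie above the line of equal level, together with most other two-cell genes, and Tcstv1 and Tcstv3 sit at the corner for 0.

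Tcstv1 and Tcstv3, members of a two-cell family in the same part of chromosome 13, were listed at 0 in all 6 libraries and could not be tested. The 2 rows stood in a block: in RefSeq order, the last 10 genes of chromosome 13 that the table holds, Tcstv1 and Tcstv3 among them, were listed at 0 in every library. That block also held Hmgcs1, a housekeeping enzyme on the way to cholesterol, and the two-cell genes AF067063, B020031M17Rik and BC147527. Among the other autosomes and X, none ended in more than 4 such genes. A 0 there can therefore be a missing estimate, and these rows say nothing on Tcstv expression. Elsewhere too a 0 is given only as listed.

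How far each row stands for its own gene depends on how much of the transcript is its own. Windows of 50 bases were taken along the longest GENCODE M21 transcript of each gene and looked up in all other annotated genes. Only 1.16% of them were found in no other gene for Gm4340, 4.66% for Zscan4f and 14.5% for Zscan4c. The share was 22.1% for Gm5662, 46.2% for Sp110 and 50.4% for Zscan4d. Zfp352 (92.9%) and Tmem92 (98.0%) were nearly free of copies, so the values of these 2 depend least on how shared reads were assigned, although both are low and each lost its call under an alternative given above. Windows of 100 bases raised the shares to 5.52% for Gm4340, 10.5% for Zscan4f and 27.2% for Zscan4c. How reads that fit several copies were counted is not given in the sources used here.

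**Figure D3:**
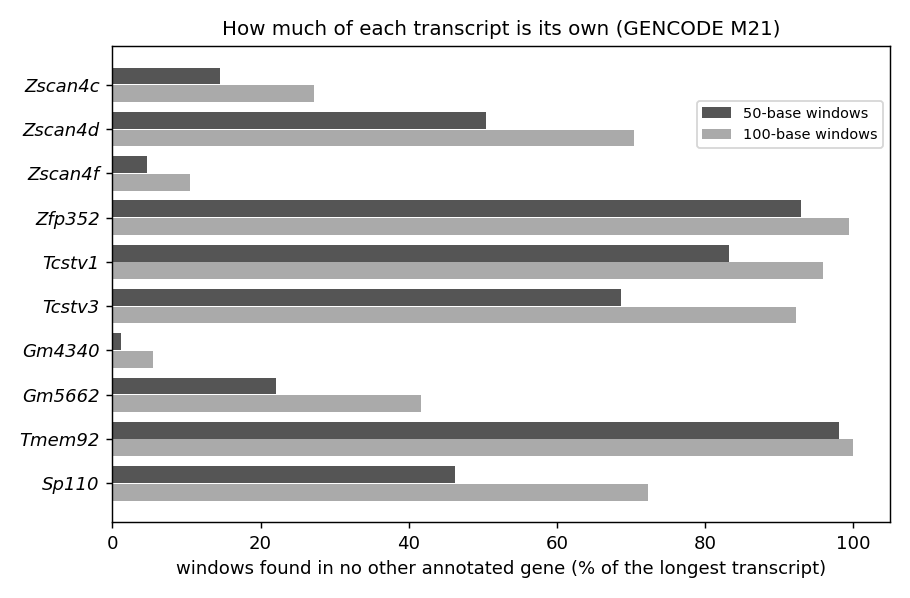
Share of 50-base (dark) and 100-base (light) windows of the longest GENCODE M21 transcript of each of the 10 genes that occur in no other annotated gene, in percent. Gm4340, Zscan4f and Zscan4c have the smallest shares, and Zfp352 and Tmem92 the largest.

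Zscan4c and Zscan4f were 99.6% identical over their aligned transcripts, Zscan4c and Zscan4d 97.5%, and Zscan4d and Zscan4f 97.8%. A sum depends less on how reads were split among the rows added, though not fully, since FPKM divides by length and the copies differ in length. It counts a read more than once if that read was counted in each copy. Nor does it recover reads assigned to copies without a row. Of these, Zscan4-ps2 shares 84.7% of the 50-base windows of Zscan4f and 71.4% of those of Zscan4c, and Zscan4-ps3 shares 60.6% and 53.2%; neither was analysed here. The 5 Zscan4 rows in the table, Zscan4a, Zscan4b, Zscan4c, Zscan4d and Zscan4f, summed to 7.90, 5.57 and 6.85 FPKM in R153A libraries, against 0.183, 0.269 and 0.371 FPKM in WT libraries. The groups stayed far apart, at a ratio of means of 24.7. Their log2 fold change was 2.60 (SE 0.129), with a limma adjusted p of 3.99e-05, and the summed row kept its call and direction under every alternative run, leaving aside the filter of 1 FPKM, which it passes only through R153A. Its fold change on this scale exceeds that of any single row because the sum lies further above the added 1 FPKM.

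Gm4340 has 6 near-identical rows, Gm20765, Gm21293, Gm21304, Gm21312, Gm6763 and Gm8764, each sharing 98.8% of its windows. These rows lay between 2.91 and 4.88 FPKM in R153A libraries and between 0.0851 and 0.285 FPKM in WT libraries. With Gm4340 they summed to 29.9, 22.2 and 24.8 FPKM in R153A libraries and 0.614, 1.21 and 1.05 FPKM in WT libraries, a ratio of means of 26.7. Gm5662 and Gm2016, 99.3% identical, summed to 2.31, 1.77 and 2.41 FPKM in R153A libraries, against 0.0557, 0.293 and 0.183 FPKM in WT libraries. In both sums the groups did not overlap. Gm21293, Gm21304, Gm6763 and Gm8764 had equal values in WT replicate 1 (0.0851 FPKM) and in WT replicate 3 (0.155 FPKM). Whether the sums count shared reads more than once is not known. With the Zscan4 and Tcstv copies each counted as 1 item, the 10 genes came to 7 items, of which 6 could be tested and all 6 were higher.

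Sp110 shares 51.4% of its windows with Gm16026, which has no row here, and its RefSeq span overlaps that of Sp140 on the opposite strand. Sp140, another SP100 family protein, had 0.277, 0.546 and 0.364 FPKM in R153A libraries and 0.00964, 0.107 and 0.0588 FPKM in WT libraries (log2 fold change 0.40, SE 0.0750; limma adjusted p = 0.00733). It was chosen after its values were seen. Whether strand was used in counting is not given in the sources used here, so reads of the overlapping parts cannot be told apart.

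Runs of the whole Gm4340 promoter, not only of the start region it shares with Sp110, were also looked for elsewhere. In all, 25 other genes, 0.0925% of the 27025 genes with a RefSeq promoter, held a run of 30 bases of the Gm4340 promoter on either strand, and 11 of them were tested. Of these, 6 rose, namely Sp110 and 5 near-identical copies of Gm4340. Another 3 fell, namely Sgk1, a kinase, Arih2, a ubiquitin ligase, and Pou5f1, the pluripotency factor Oct4. The shares over all genes tested were 26.9% higher and 13.4% lower. Sgk1 had 35.8, 30.8 and 36.2 FPKM in R153A libraries and 93.9, 99.9 and 102 FPKM in WT libraries. Pou5f1 had 527, 510 and 516 FPKM in R153A libraries, against 668, 698 and 696 FPKM in WT libraries. Pemt and D17Ertd648e did not pass the test. Pou5f1 held no run of 30 bases of the Sp110 promoter shown above, so its run lies outside the shared start region. Since 5 of the 6 that rose are copies of Gm4340, these counts are a description only.

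The other genes of the two-cell program were read from a list of 74 symbols, of which 61 had a row, 9 were listed at 0 in all 6 libraries and 52 were tested. Of those, 28 rose, 3 fell and 21 did not pass the test, with a median log2 fold change of 0.20. The shares were 53.8% higher and 5.77% lower, against 26.9% and 13.4% over all genes tested. Among genes with a mean under 1 FPKM they were 18.5% and 5.01%. Rows are not all separate genes: Gm7978 and BC061212 were equal in all 6 libraries, and Gm13040, Gm13043 and Gm13057 are near-copies. Gm6763, Gm2016, Zscan4a and Zscan4b belong to the families of members. Of the 28 that rose, 13 had at least 50% of their 50-base windows in no other gene. Like the 10 genes, most were low: 8 of the 61 reached 1 FPKM in 3 libraries.

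Gm6763, a copy of Gm4340, rose furthest, with 4.88, 3.92 and 3.85 FPKM in R153A libraries and 0.0851, 0.285 and 0.155 FPKM in WT libraries (log2 fold change 2.15, SE 0.108; limma adjusted p = 4.17e-05). Duxbl1, a Dux-like homeobox gene, had 5.03, 4.37 and 4.80 FPKM in R153A libraries, against 0.819, 1.08 and 0.945 FPKM in WT libraries (log2 fold change 1.56, SE 0.0835; limma adjusted p = 5.33e-05). Ddit4l, an inhibitor of mTOR signalling, had 4.24, 3.92 and 3.92 FPKM in R153A libraries and 0.905, 1.499 and 1.12 FPKM in WT libraries (log2 fold change 1.22, SE 0.112; limma adjusted p = 3.82e-04). Duxbl1 and Ddit4l were already near 1 FPKM in WT, unlike any of the 10 genes. Only 2.80% of the 50-base windows of Duxbl1 were found in no other gene, against 99.8% for Ddit4l. Zscan4b (log2 fold change 0.93) and BC080695 (log2 fold change 0.81) also rose.

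Obox6, a homeobox gene of oocytes and early embryos, fell, with 0.363, 0.601 and 0.548 FPKM in R153A libraries, against 1.66, 1.72 and 1.81 FPKM in WT libraries (log2 fold change -0.86, SE 0.0767; limma adjusted p = 3.31e-04). Calcoco2, an autophagy receptor, and Usp26, a deubiquitinase, fell by less, with log2 fold changes of -0.71 and -0.42, and are named because only 3 genes fell. All 3 were at or above 1.66 FPKM in every WT library.

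**Figure D4:**
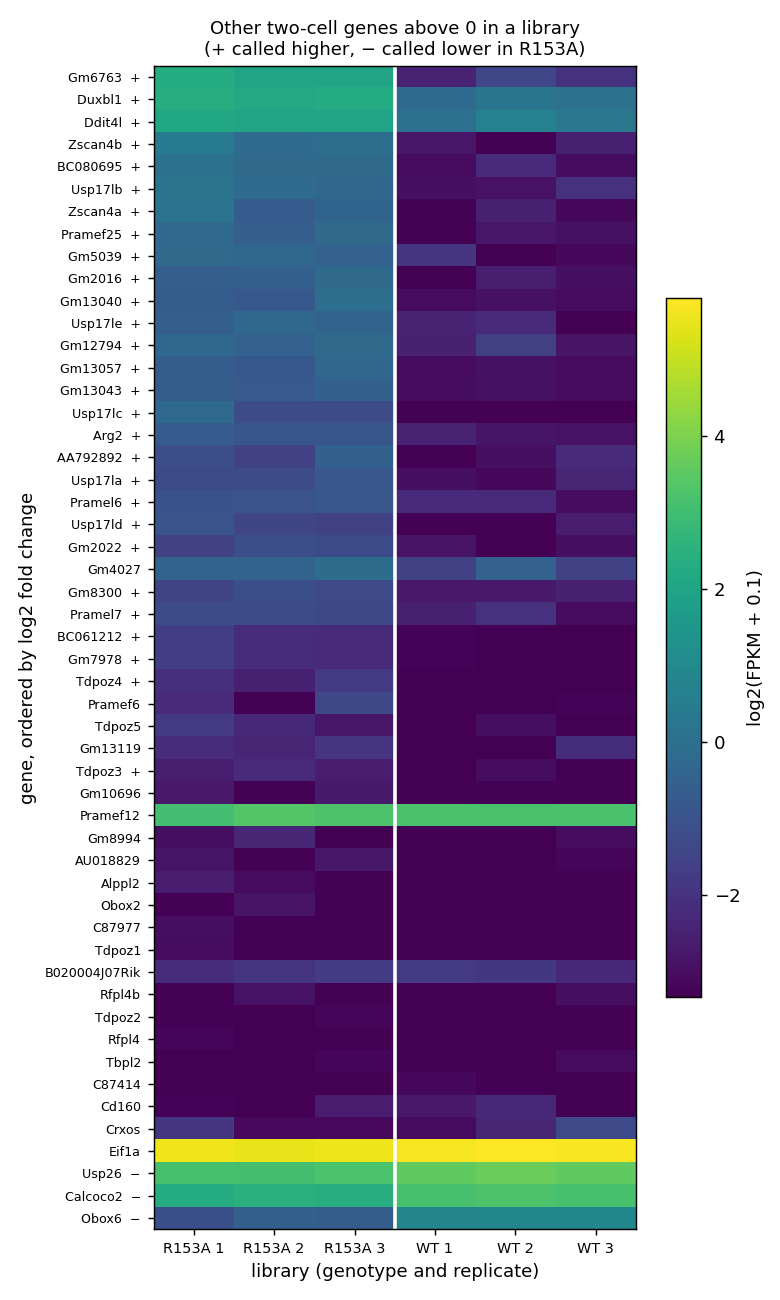
log2(FPKM + 0.1) of the 52 other two-cell genes above 0 in a library, 1 row per gene ordered by fold change, in the 3 R153A and the 3 WT libraries, with + for genes called higher and − for genes called lower in R153A. Genes called higher take most of the upper rows, with some uncalled genes among them, and the 3 called lower are at the bottom.

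Of the genes known to activate the state, 9 had a row and 8 were tested: 3 rose, 1 fell and 4 did not pass. These shares, 37.5% higher and 12.5% lower, stand against 26.9% and 13.4% over all genes tested. Of the 9 activators, 6 reached 1 FPKM in 3 libraries. In the fit to the 11817 genes that did, 4428 (37.5%) were called higher and 2634 lower. Dux, the transcription factor of the two-cell program, had 0.165, 0.152 and 0.165 FPKM in R153A libraries and 0, 0 and 0.0134 FPKM in WT libraries (log2 fold change 0.21, SE 0.0150; limma adjusted p = 1.43e-04). It was far below the level of the Zscan4 rows in R153A. Gata2, a GATA factor, had 2.20, 1.77 and 2.07 FPKM in R153A libraries, against 0.973, 1.14 and 0.980 FPKM in WT libraries (log2 fold change 0.57, limma adjusted p = 0.00227). Trp53, the tumour suppressor p53, had 21.3, 20.4 and 21.4 FPKM in R153A libraries and 16.1, 16.4 and 17.8 FPKM in WT libraries (log2 fold change 0.31, limma adjusted p = 0.00297).

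Dppa2, which acts with Dppa4 upstream of Dux, moved the other way, with 26.2, 25.2 and 27.7 FPKM in R153A libraries, against 39.7, 41.2 and 39.8 FPKM in WT libraries (log2 fold change -0.59, SE 0.0405; limma adjusted p = 1.18e-04). The groups did not overlap. Dppa4 had 43.4, 40.9 and 44.8 FPKM in R153A libraries and 44.3, 48.6 and 52.5 FPKM in WT libraries, which did not pass (log2 fold change -0.17, limma adjusted p = 0.106). Nelfa, Zbtb24 and Obox3 did not pass either, with log2 fold changes between 0.0068 and 0.021.

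Of 22 genes known to repress the state, 8 rose, 10 fell and 4 did not pass. That is 36.4% higher and 45.5% lower, against 26.9% and 13.4% over all genes tested. All 22 reached 1 FPKM in 3 libraries. In the fit to the 11817 genes that did, 4428 (37.5%) were called higher and 2634 lower. Tet1, a 5-methylcytosine oxidase, fell most, with 14.1, 12.6 and 14.3 FPKM in R153A libraries, against 36.8, 41.4 and 33.6 FPKM in WT libraries (log2 fold change -1.38, SE 0.0848; limma adjusted p = 8.15e-05). Trim28, the corepressor of KRAB zinc finger proteins, had 297, 281 and 286 FPKM in R153A libraries and 381, 435 and 378 FPKM in WT libraries (log2 fold change -0.46, limma adjusted p = 0.00201). For both genes every R153A library lay below every WT library. Rybp, a subunit of variant Polycomb complexes, fell by 0.43 on the log2 scale. Lin28a, an RNA-binding protein that acts with Trim28 at Dux, rose, with 98.5, 98.1 and 100.5 FPKM in R153A libraries, against 42.2, 46.7 and 41.4 FPKM in WT libraries (log2 fold change 1.17, SE 0.0498; limma adjusted p = 2.55e-05). Smchd1, a chromatin protein that silences Dux, and Myc both rose, with log2 fold changes of 0.60 and 0.61. The repressors thus moved in both directions, around a median of -0.058.

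Sp110 belongs to the interferon-inducible genes as well as to the two-cell genes, so that group was read too. Of 32 SP and interferon genes, 30 were tested, of which 18 rose, Sp110 and Sp140 among them, 3 fell and 9 did not pass. The shares were 60% higher and 10% lower, against 26.9% and 13.4% over all genes tested. Gbp2, a guanylate-binding protein, had 40.7, 43.9 and 43.8 FPKM in R153A libraries, against 2.09, 2.48 and 2.03 FPKM in WT libraries (log2 fold change 3.78, SE 0.0665; limma adjusted p = 4.01e-06). Irf1, a transcription factor of the interferon response, had 51.6, 49.5 and 54.6 FPKM in R153A libraries and 12.5, 13.6 and 12.6 FPKM in WT libraries (log2 fold change 1.93, limma adjusted p = 6.43e-06). Gbp2 and Irf1 stood at far higher FPKM than Sp110 in both groups. The immunoproteasome subunits Psmb8 and Psmb9, the peptide transporter Tap1 and Gbp3 rose by 2.02 to 2.65 on the log2 scale. Stat2, Xaf1 and Oas1a fell, with log2 fold changes of -0.47, -0.97 and -0.99. The median log2 fold change of the list was 0.34. The part of this group's change in that of Sp110 was not tested.

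**Figure D5:**
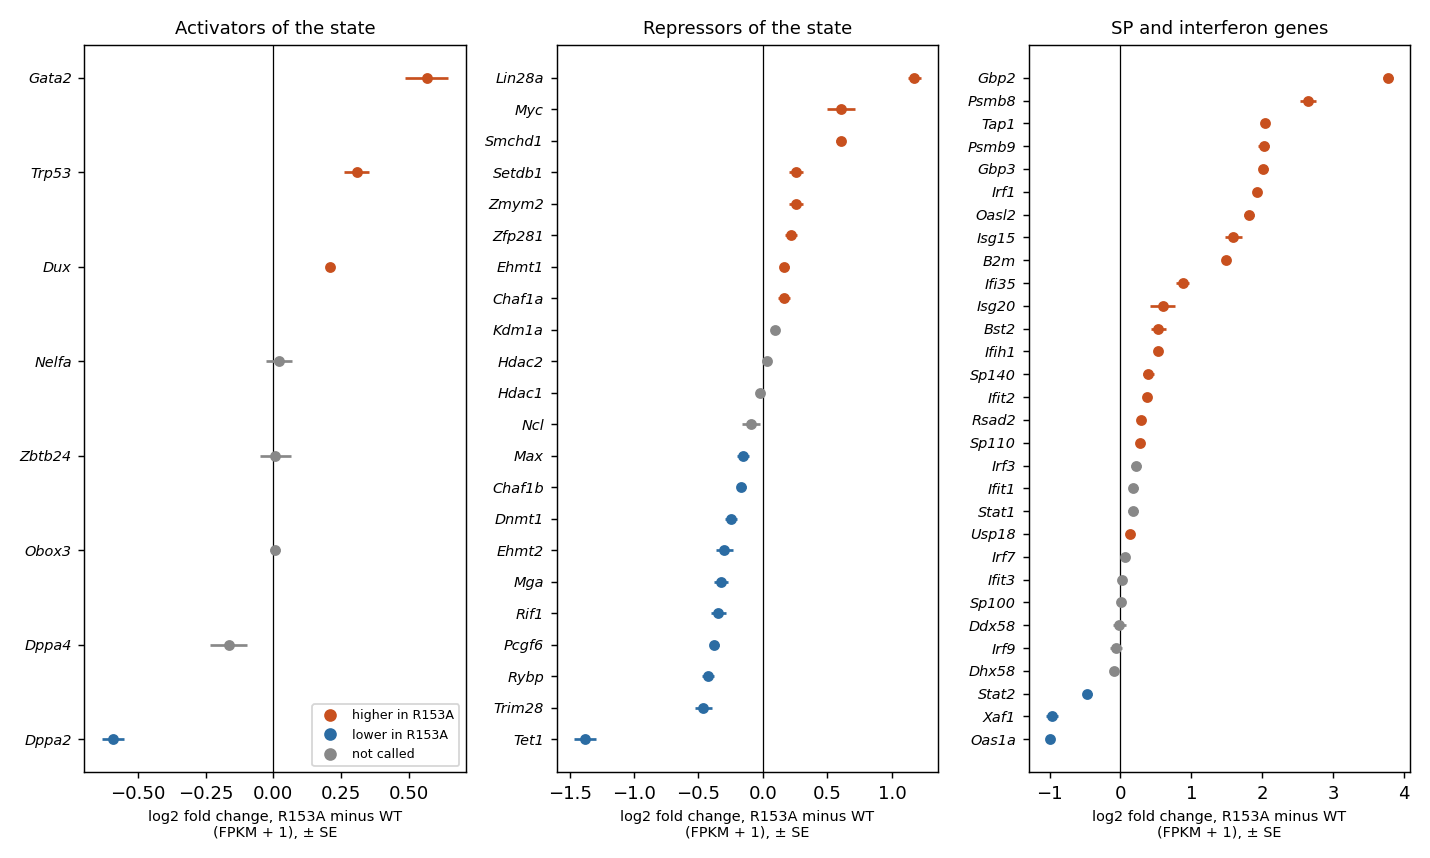
log2 fold changes on the log2(FPKM + 1) scale, R153A minus WT, with SE, of 8 activators and 22 repressors of the two-cell-like state and of 30 SP and interferon genes, each panel with its own scale. Orange points were called higher, blue points lower and grey points neither; Dux and Lin28a lie to the right, Dppa2 and Tet1 to the left.

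Zscan4 is tied to telomeres and meiosis-like recombination, so 14 genes of these processes were read. Among them 2 rose, 5 fell and 7 did not pass. That is 14.3% higher and 35.7% lower, against 26.9% and 13.4% over all genes tested. Of the 14 genes, 13 reached 1 FPKM in 3 libraries. In the fit to the 11817 genes that did, 4428 (37.5%) were called higher and 2634 lower. Smc1b, the meiotic cohesin subunit, had 4.15, 4.15 and 4.36 FPKM in R153A libraries and 14.6, 14.6 and 14.5 FPKM in WT libraries (log2 fold change -1.58, SE 0.0397; limma adjusted p = 6.07e-06). Dmc1, the meiotic recombinase, had 8.65, 7.47 and 8.46 FPKM in R153A libraries, against 12.3, 14.3 and 14.9 FPKM in WT libraries (log2 fold change -0.69, limma adjusted p = 0.00121). Both meiotic genes were lower in every R153A library than in any WT library. Blm, a helicase, and Pot1a and Pot1b, of the shelterin complex at telomeres, fell by 0.28, 0.27 and 0.20 on the log2 scale. The call for Pot1b was lost without any one of the 6 libraries (limma adjusted p between 0.0607 and 0.0923). Terf2ip, the shelterin protein Rap1, rose with a log2 fold change of 0.34, a call lost under quantile normalization (limma adjusted p = 0.0817). Spo11, which makes meiotic DNA breaks, also rose (log2 fold change 0.18) and is named because only 2 genes did.

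Markers of other sources were read beside these results. Over all genes tested, 26.9% were called higher and 13.4% lower. The embryonic stem cell markers summed to 2354 to 2459 FPKM in R153A libraries and 4435 to 5207 FPKM in WT libraries. Of 13 fibroblast feeder markers, 9 rose and none fell, and they summed to 32.3 to 33.3 FPKM in R153A libraries and 23.6 to 26.2 FPKM in WT libraries. The summed stem cell markers were thus lower and the summed feeder markers higher in all R153A libraries. Fbln1 alone held 17.6 ± 0.638 FPKM in R153A and 14.3 ± 0.555 FPKM in WT (SD, n = 3 each), while Lum was listed at 0 in all WT libraries. Of 19 oocyte genes, 17 were tested, 2 rose (Zp3 and Figla) and 3 fell (Ooep, Nlrp4f and Tle6), and the sum was 32.3 to 36.1 FPKM in R153A libraries and 77.8 to 95.6 FPKM in WT libraries, with Bmp15 and Oosp1 listed at 0 in all 6. Ooep alone held 19.6 ± 0.392 FPKM in R153A and 72.6 ± 8.19 FPKM in WT (SD, n = 3 each). The part of these shifts in the members' rise was not tested.

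The 5 genes outside all lists whose levels over the 6 libraries lay nearest to the mean profile of Zscan4c, Zscan4d and Zscan4f were Tmem200a, Cdx4, Dlk1, Spats2l and Cdk14. Likeness was the root mean square difference of log2(FPKM + 0.1) over the 6 libraries, and it ran from 0.18 for Tmem200a to 0.30 for Cdk14. Tmem200a had 1.47, 1.24 and 1.58 FPKM in R153A libraries and 0.0494, 0.0512 and 0.0573 FPKM in WT libraries, and it too was lowest in R153A replicate 2. Cdx4, a caudal-type homeobox gene, had 1.73, 1.54 and 2.20 FPKM in R153A libraries, against 0.0386, 0.0687 and 0.0531 FPKM in WT libraries. They were chosen for this likeness, which is a description without a test.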

How the data were processed

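Expression was measured by RNA-seq in 3 R153A and 3 WT libraries of mouse embryonic stem cells. The values, in FPKM per gene symbol, were used as the authors deposited them. The submitters' processing notes name the build mm9 and, in no stated role, edgeR 3.26.8, HTSeq 0.11.2, SAMtools 1.9 and Bowtie2 2.3.4.3. The sources used here do not say which annotation was used, how reads that fit several genes were handled or whether strand was used. Reads per step could not be recovered, so depth is unknown and no count test or counting interval is given.

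Every gene above 0 in at least 1 library was tested (20504 of 24083) on log2(FPKM + 1), with limma 3.58.1 in R 4.3.3, a mean-variance trend, no covariates, 2-sided, adjusted by Benjamini-Hochberg across these genes, with calls at an adjusted p under 0.05. A filter at 1 FPKM was kept as an alternative, because it would admit members only through R153A. An exact permutation test of 3 against 3 libraries cannot go below p = 0.1. The fit was tested on simulated data, where the share of false calls lay above the nominal threshold and most of the smallest changes were missed, so calls near the threshold or of small size are less certain.

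The members and gene lists were chosen with earlier results of these data known. All members are named. Of each regulator, interferon, telomere and other two-cell list, called genes are named up to 6 by the size of the change; further names came after their values were seen. Tried as alternatives were other pseudocounts, a filter, 3 scalings, 2 variance settings, a replicate block, leaving out each library, and summed copies. Sums over the near-copies of Gm4340 and Gm5662 were added after the data were seen. Copy windows and identities came from GENCODE M21 transcripts (aligned with Biopython 1.88), promoters from RefSeq (GRCm38.p6), not from the files' build, and matched by symbol. Shared runs of 30 bases were searched on both strands. Plots used Python 3.11.15 with matplotlib 3.10.9.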

Additional observations from a re-analysis of the deposited data

How the results depend on the processing

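In the alternatives that did not filter on level, all 8 tested members had a positive fold change. The number called was 8, and 7 to 8 without any one library, 7 under quantile normalization and 4 under the filter of 1 FPKM, which tested only 4 genes, admitted through R153A. The median log2 fold change over all 10 genes, with the 2 listed at 0 counted as 0, was 0.66, and follows the scale: it was 2.16 with a pseudocount of 0.1, 1.06 with 0.5, 0.58 under quantile normalization, 1.24 rescaled to TPM, 0.63 to 0.76 without any one library, and 0.27 with the Zscan4 rows and the Tcstv rows summed. Without the genes listed at 0 it was 1.09 over 8 genes and 0.70 over the 6 tested items left after summing. Under the filter, 3 other two-cell genes were called higher and 4 lower, and 1 telomere gene higher and 7 lower. Quantile normalization left 1 telomere gene higher and 7 lower, and 16 interferon genes higher and 5 lower. Activators called lower numbered 2, Dppa4 joining Dppa2, under the filter, median-ratio scaling, quantile normalization and TPM, and 1 to 2 without any one library, with 2 without WT replicate 1. Over all genes, 66.8% of calls were higher in R153A, against 58.9% under median-ratio scaling and 48.8% under quantile normalization, where 4379 genes were called lower against 2747. The cause of these moves was not tested.

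Same-numbered libraries did not deviate together across genes (r between -0.058 and 0.025), so no pairing by replicate number was seen. Whether same-numbered libraries were prepared together is not known. With the replicate number as a block, 4895 genes were called higher and 2382 lower, all 8 members stayed higher, and Pot1b lost its call (limma adjusted p = 0.109). No gene named by rule changed direction under the alternatives run. FPKM without depth limits what can be said of values under about 0.1 FPKM.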
